A study of Mus musculus with 33 samples.

Results

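Apex1-mutant embryoid bodies treated with retinoic acid (EBs + RA) were compared with Neil1- and Neil2-mutant EBs + RA, to see which of the defects of the RA stage the mutant kinds do not share. All cells derive from E14TG2a, a mouse embryonic stem cell (mESC) line, and were edited with CRISPR/Cas9. EBs were grown for 8 days and received 5 µM RA from day 4. The comparison used 8 of the 33 libraries of the series, which were 2 technical duplicates of 1 Apex1 knockout clone, 3 independent Neil1 knockout clones and 3 independent Neil2 knockout clones. The Neil1 and Neil2 clones were pooled as 6 Neil libraries, and 3 control clones that had received an empty vector, also as EBs + RA, served only to place the differences. The 8 libraries held 21523742 to 29133599 counts on genes. Of 34551 autosomal gene identifiers, 15960 had enough counts to be tested.

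NEIL1 and NEIL2 are DNA glycosylases that begin base excision repair, in which they remove oxidised bases and can also cut the DNA strand. APEX1 is the main AP endonuclease, which cuts the strand at the abasic sites that most glycosylases leave behind, and it also acts as a redox factor for transcription factors. EBs are balls of differentiating mESCs that form tissues of all germ layers, and RA drives much of an EB towards neural progenitors and gives them hindbrain and spinal identity through the Hox genes. The neural crest, which arises at the border of the neural plate, gives rise to peripheral neurons and to the mesenchyme of the face.

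The guides are shown because they set which exons each clone is designed to lack. Each pair of guides was placed by exact match to NCBIM37, the build of the count files, with the guide in lower case and the NGG motif that Cas9 needs (PAM) in capitals.
Apex1 D209_1, chr14:51546001-51546020, plus strand: tgcccgctaaaagtctcttaTGG
Apex1 D209_2, chr14:51546586-51546605, plus strand: aagatccggtccaaggctctTGG
Neil1 P1_1, chr9:56995167-56995186, minus strand: gggaggaacaggtttgtaagTGG
Neil1 P1_2, chr9:56994583-56994602, minus strand: gatgtcaggatccttccagcTGG
Neil2 P1_1, chr14:63810934-63810953, minus strand: gctgtgtggttaaggctgagGGG
Neil2 P1_2, chr14:63810347-63810366, minus strand: gctgtgaagaatgtctgaaaAGG
Guide Apex1 D209_2 has a second exact match with a PAM on chromosome 1, at chr1:45576662-45576681 on the minus strand. The match lies within no annotated gene, but Col3a1, which is among the largest differences below, lies nearby at chr1:45368383-45406551. Whether this site was cut, and any part of it in the results, was not tested. The planned deletions span 585 bases in Apex1, 584 bases in Neil1 and 587 bases in Neil2.

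The count of the targeted gene does not check the Apex1 deletion. Apex1 had 70.4 and 63.0 CPM, which are read counts scaled to a common library size, in the Apex1 libraries, against 5.10 to 8.97 CPM in the 6 Neil libraries and 14.1, 15.5 and 16.3 CPM in the controls. All 483 exon bases of Apex1 inside the deletion are shared with exons of the neighbouring gene Tmem55b, and the counting set aside reads that fell on both genes. None of the 545 exon bases that belong to Apex1 alone is deleted, so that the counted reads came from the rest of the gene. Neil1 was at 4.90, 2.52 and 3.38 CPM in the Neil1 clones, below the 6.80 to 7.65 CPM of the Neil2 clones, the 6.77 to 9.18 CPM of the controls and the 8.87 and 9.16 CPM of the Apex1 libraries. Neil2 was at 6.67, 5.91 and 5.49 CPM in the Neil2 clones, below the 9.27 to 10.4 CPM of the Neil1 clones but above the 3.81 to 5.09 CPM of the controls, and at 5.54 and 7.62 CPM in the Apex1 libraries. The planned deletions take 279 of 1688 exon bases of Neil1 and 154 of 1932 of Neil2, so that most counted bases lie outside them and the gene count checks neither deletion directly.

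Apex1 and Neil EBs + RA differed in many genes, and for most of the genes with the firmest differences the controls stood nearer to Apex1. Differentially expressed (DE) genes had an absolute log2 fold change above 0.5 and a false discovery rate (FDR) below 0.1 in the quasi-likelihood test of edgeR, with p-values adjusted by Benjamini-Hochberg over all genes tested. With the duplicates as 2 libraries 3671 genes were DE, which is 23.0% of the genes tested, with 1896 higher (11.9%) and 1775 lower (11.1%) in Apex1. The duplicates share a clone, and their biological coefficient of variation was 13%, against 24.3% among the Neil1 clones, 19.6% among the Neil2 clones and 18.9% among the controls. With the duplicates summed to 1 library, which is then assumed to vary like the Neil clones, 782 of 16541 genes were DE, 599 higher and 183 lower. Both fits called 777 genes in the same direction (4.87%), 594 higher (3.72%) and 183 lower (1.15%), and these are referred to as DE in both fits. "Higher" and "lower" refer to Apex1 relative to Neil throughout. With 1 clone against 6, an exact permutation test over clones cannot give a p below 0.143. Any feature particular to this clone cannot be told apart from the Apex1 deletion.

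Among the 594 genes higher in both fits, the control mean lay nearer to Apex1 for 464 (78.1%), and among the 183 lower genes for 144 (78.7%), against 58.3% of all genes tested. The median Neil minus control difference of the 594 genes was −1.56 and their median Apex1 minus control difference 0.00 on the log2 scale. Of these genes, 463 were called lower than control in Neil, where 16.5% of all genes were, and 102 in Apex1, where 7.20% were. Apex1 was called higher than control in 137 of the 594, where 10.8% of all genes were, and Neil in 14. For the 183 lower genes the median differences from control were 1.12 in Neil and −0.34 in Apex1. Neil was called higher than control in 159 of them, where 22.8% of all genes were, and Apex1 in 3, while Apex1 was called lower than control in 33 of them. In all, 39.3% of genes differed between Neil and control and 18.0% between Apex1 and control. The Neil counts rest on 6 clones and the Apex1 counts on 2 duplicates of 1 clone. They therefore do not rank the mutants by distance from control. The comparisons with control share the 3 control libraries, so that their values are set side by side only. They were run only with the duplicates as 2 libraries. Every adjusted p of Apex1 against control given below therefore partly measures technical spread.

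The 12 largest rises in Apex1 included 3 genes of the extracellular matrix, Hapln1, Col3a1 and Col1a1. Hapln1, which links hyaluronan to proteoglycans (chr13:89680241-89751437, NCBIM37), had 21.2 and 37.7 CPM in Apex1 and 0.139 to 0.685 CPM in Neil, with a median of 0.383, and 11.5, 7.04 and 8.73 CPM in the controls. The groups did not overlap, as was the case for 38.0% of all genes tested, and the log2 difference was 6.14 ± 0.36 (SE, adjusted p = 2.37e-05, and 0.000648 with the duplicates summed). Col3a1, a fibrillar collagen of mesenchyme (chr1:45368383-45406551), had 90.5 and 124 CPM in Apex1 and 108 to 119 CPM in the controls, but 2.02 to 7.15 CPM in Neil. The difference of Col3a1 was 4.95 ± 0.39 (adjusted p = 0.000222). Col1a1, which encodes the main chain of type I collagen, stood at 34.0 and 52.4 CPM in Apex1, 1.11 to 7.66 CPM in Neil and 44.7 to 92.2 CPM in the controls. For both collagens the Apex1 libraries lay at or near the control range and all Neil clones far under it.

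**Figure D1:**
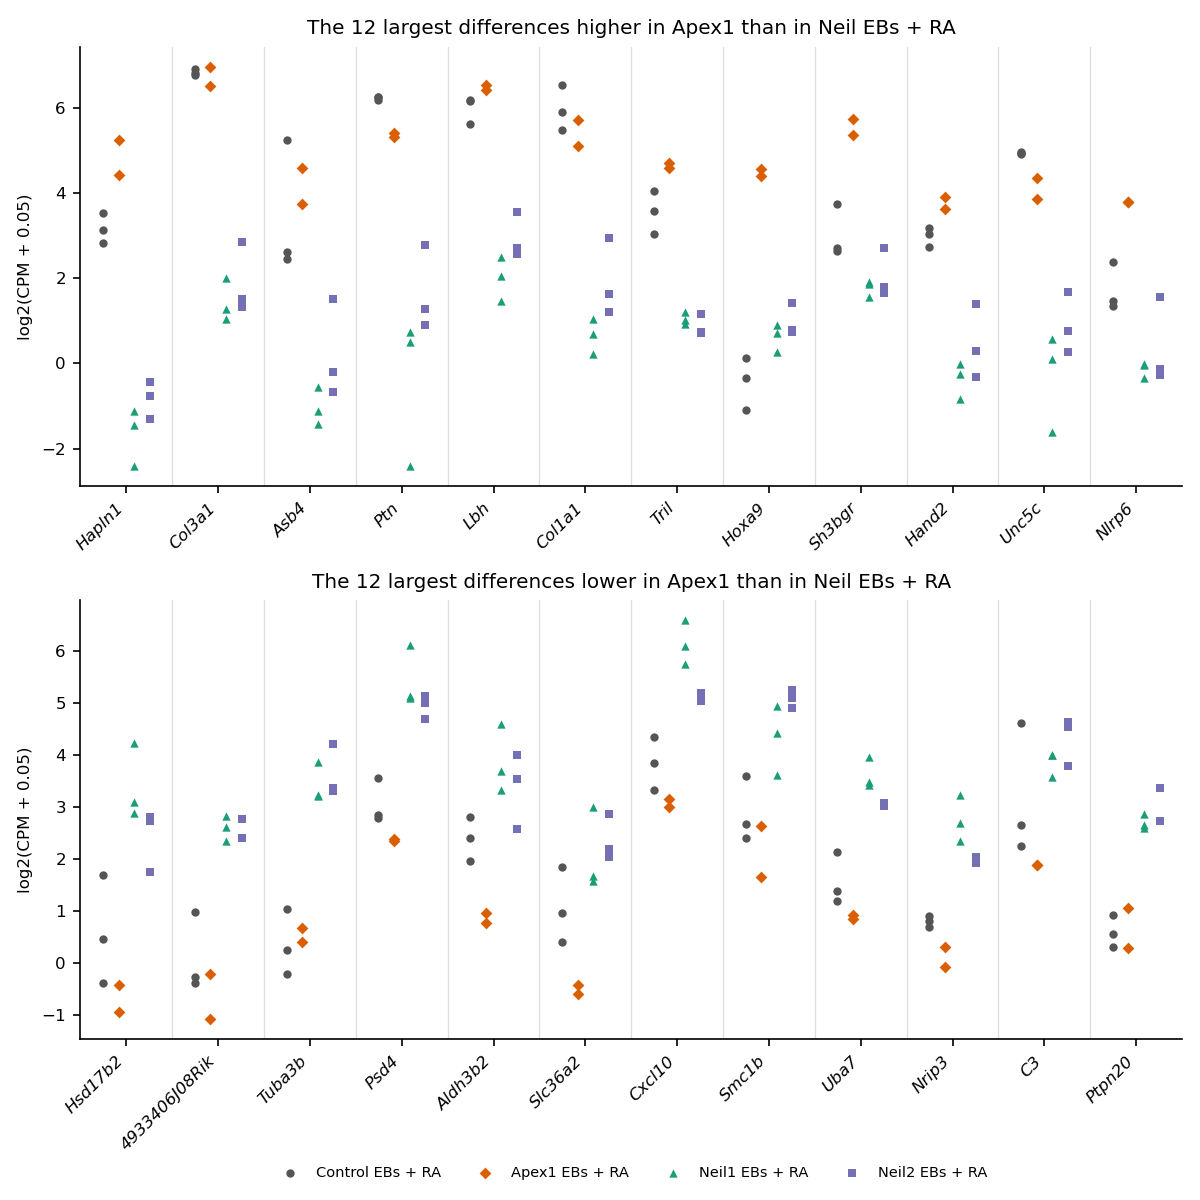
Each panel shows the 12 genes with the largest differences that were DE in both fits, had a mean log2 CPM of at least 2 and did not overlap between kinds of mutant, with 1 point per EBs + RA library on the y axis as log2(CPM + 0.05). In the upper panel the 2 Apex1 libraries lie above all 6 Neil libraries, from 6.14 for Hapln1 to 3.53 for Nlrp6 on the log2 scale, and in the lower panel they lie below all 6, from −3.86 for Hsd17b2 to −2.15 for Ptpn20.

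Other genes among the 12 largest rises had other roles. Ptn, a heparin-binding growth factor, was at 39.4 and 42.4 CPM in Apex1 against 0.139 to 6.80 CPM in Neil. Unc5c, a netrin receptor of axon guidance, was at 14.5 and 20.2 CPM against 0.278 to 3.12 CPM. Lbh, a transcription cofactor of limb and heart, was at 85.6 and 93.1 CPM against 2.69 to 11.6 CPM. In all of these the controls stood at or above 30.1 CPM. Asb4, Tril, Hoxa9, Sh3bgr, Hand2 and Nlrp6 completed the group with differences of 4.32, 3.70, 3.66, 3.60, 3.59 and 3.53. Sh3bgr, Nlrp6 and Tril stood higher in Apex1 than in control as well. Their Apex1 minus control differences were 2.49 (adjusted p = 0.00196), 2.04 (adjusted p = 0.0221) and 1.07 (adjusted p = 0.0242). Hoxa9 did so by 4.93 (adjusted p = 0.000164) and Hapln1 by 1.73 (adjusted p = 0.0104). These comparisons were not repeated with the duplicates summed.

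Over the mesenchymal matrix list, 14 of the 22 members tested were DE and higher and none lower, with 5 DE in both fits. For this and every other list, the shares over all genes tested were 11.9% higher and 11.1% lower. In both fits they were 3.72% higher and 1.15% lower. Its median difference was 1.27, against −0.03 over all genes tested, and the median differences from control were −1.49 in Neil and −0.37 in Apex1. Besides both collagens, the 5 were Prrx1, a homeobox factor of limb and face mesenchyme, Dcn, a proteoglycan that binds collagen, and Fstl1, a secreted glycoprotein. Prrx1 had 4.08 and 7.47 CPM in Apex1 and 0.185 to 0.645 CPM in Neil, with a difference of 3.63 ± 0.39 (adjusted p = 0.000682), but 10.9 to 20.7 CPM in the controls. Fstl1 reached 281 and 311 CPM in Apex1 against 63.4 to 90 CPM in Neil. In bulk RNA, fewer cells of a type and less RNA per cell cannot be told apart.

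Mesoderm and endothelial lists leaned the same way, beside 11.9% higher, 11.1% lower and 3.72% higher in both fits over all genes. Of 23 tested genes of primitive streak and mesoderm, 10 were higher and 1 lower, with 5 higher in both fits, and the median was 0.57. Both kinds of mutant stood above control by the median of this list, by 0.60 in Apex1 and 0.54 in Neil. It summed to 314 and 318 CPM in Apex1, 166 to 403 CPM in Neil and 371 to 474 CPM in the controls. Meox1, a somite factor, was at 21.4 and 25.2 CPM in Apex1, 2.09 to 9.76 CPM in Neil and 37.2 to 40.1 CPM in the controls (2.52 ± 0.50, adjusted p = 0.0109). Osr1 and Tbx18, both factors of intermediate or lateral mesoderm derivatives, differed by 2.30 and 1.85. Eomes, a factor of the streak and of trophoblast, was not DE, with 18.9 and 17.4 CPM in Apex1, 6.30 to 17.2 CPM in Neil and 3.0 to 4.16 CPM in the controls, and thus stood above control in both kinds of mutant. Of 22 endothelial genes tested, 11 were higher and none lower, with 6 higher in both fits and a median of 0.85. Fli1, an ETS factor of blood and vessel precursors, had 4.88 and 7.12 CPM in Apex1, 0.0927 to 0.431 CPM in Neil and 3.30 to 4.51 CPM in the controls (4.13 ± 0.39, adjusted p = 0.000348). Tie1, an endothelial receptor, was at 3.66 and 5.70 CPM against 0.420 to 1.07 CPM, and Sox18, an endothelial transcription factor, at 3.90 and 5.16 CPM against 0.00 to 0.706 CPM. These genes rested on few counts in the Neil clones. The endothelial list summed to 280 and 295 CPM in Apex1 and to 216 to 525 CPM in Neil, so that its total did not separate the groups. The controls summed to 169 to 204 CPM, and the median differences from control were 0.23 in Apex1 and 0.38 in Neil. Of the endothelial members not called, 3 lay above 0 and 8 below. Of the cardiac and striated muscle list 3 of 20 were higher and 2 lower, and of the erythroid list none of 5, with no member of either DE in both fits.

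Many neural genes that the controls expressed were low in both kinds of mutant, while others, among them Vim, Cdh2, Ngfr and Hand2, differed between the mutants. Pax6, a factor of neural progenitors, had 143, 143 and 54.0 CPM in the controls, 9.34 and 10.4 CPM in Apex1 and 4.22 to 8.81 CPM in Neil. Its differences from control were −3.49 ± 0.45 in Apex1 (adjusted p = 0.00116) and −4.01 ± 0.30 in Neil (adjusted p = 2.18e-06), and the difference between the mutants was 0.52 ± 0.28 (adjusted p = 0.212). Pax3, a neural plate border and crest factor, had 1.08 and 1.39 CPM in Apex1 and 0.324 to 1.79 CPM in Neil, against 7.57 to 23.1 CPM in the controls. Pax3 differed between the mutants by −0.11 ± 0.49 and Pax2, a factor of midbrain, ear and kidney, by 0.02 ± 0.40, neither DE. Neurog1, a proneural factor of sensory neurons, was at 1.13 and 0.462 CPM in Apex1 and 0.00 to 0.215 CPM in Neil, against 8.99 to 20.5 CPM in the controls, and was DE (3.13 ± 0.75, adjusted p = 0.0207) but not with the duplicates summed (adjusted p = 0.114).

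Vim, the intermediate filament of progenitor cells, had 219 and 214 CPM in Apex1, 42.6 to 69.5 CPM in Neil and 420 to 708 CPM in the controls. The Apex1 libraries lay between the controls and the Neil clones without overlap, and the difference was 1.96 ± 0.16 (adjusted p = 0.000124). Cdh2, or N-cadherin, the cadherin of neural epithelium, showed the same order, with 60.5 and 75 CPM, 7.37 to 18.9 CPM and 137 to 235 CPM, and a difference of 2.39 ± 0.27 (adjusted p = 0.000930). Sox11, a factor of immature neurons, was at 10.7 and 6.85 CPM in Apex1, 1.49 to 3.76 CPM in Neil and 16.4 to 29.2 CPM in the controls. Nes, or nestin, a filament of neural stem cells, was DE by 0.96 ± 0.25 (adjusted p = 0.0279) but not with the duplicates summed (adjusted p = 0.161). Over the list of neural stem and progenitor cells 10 of 15 tested genes were higher and none lower, with 3 higher in both fits and a median of 0.98, while the median differences from control were −1.49 in Apex1 and −2.48 in Neil. The list summed to 580 and 594 CPM in Apex1, 158 to 256 CPM in Neil and 1060 to 1790 CPM in the controls. Sox1 is not analysed here.

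**Figure D2:**
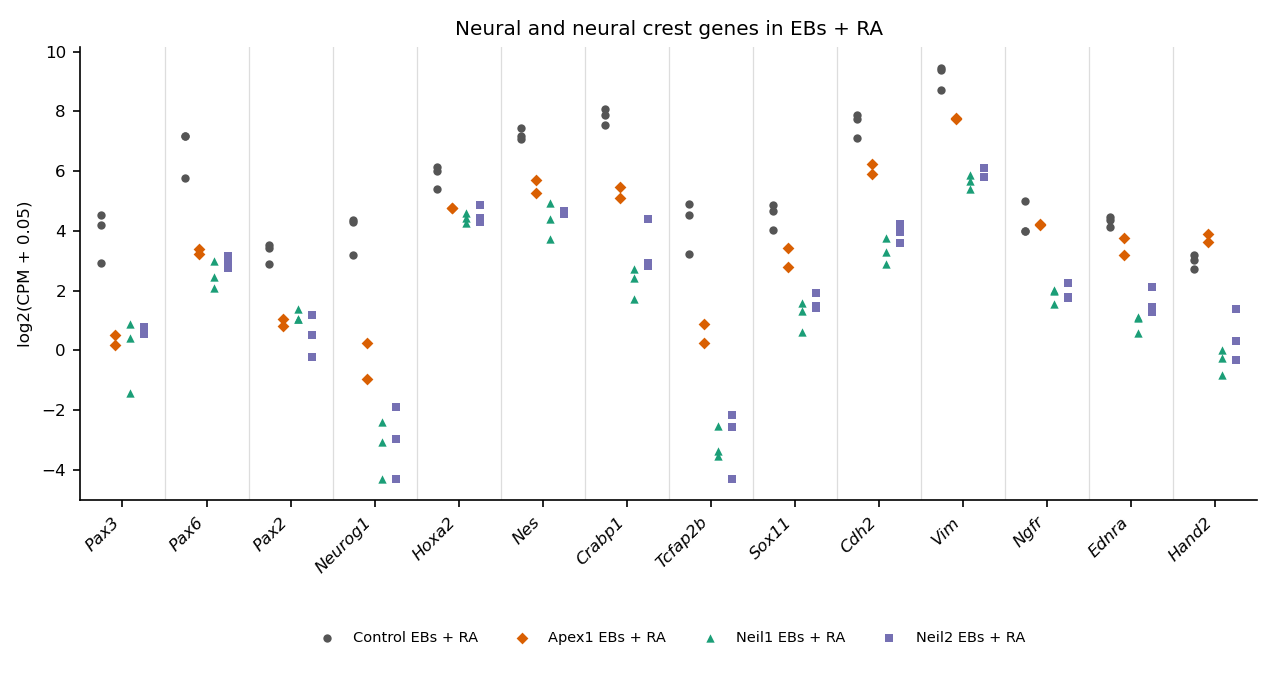
Named neural and neural crest genes are shown on the x axis, with log2(CPM + 0.05) on the y axis and 1 point for each of the 11 EBs + RA libraries. From Pax3 to Hoxa2 at the left both kinds of mutant lie below the controls and, apart from Neurog1, no difference between them was called, and from Nes to Hand2 the 2 Apex1 libraries lie above all 6 Neil libraries.

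Neural crest genes differed in part, beside 11.9% higher, 11.1% lower and 3.72% higher in both fits over all genes. Of 35 members tested, 14 were higher, 1 was lower and 5 were higher in both fits, with a median of 0.39. Hand2, a factor of crest derived autonomic neurons and of heart, had 14.9 and 12.2 CPM in Apex1, 0.510 to 2.57 CPM in Neil and 6.56 to 9.06 CPM in the controls (3.59 ± 0.44, adjusted p = 0.00135). Ngfr, the p75 neurotrophin receptor of migrating crest, was at 18.1 and 18.9 CPM in Apex1 and 15.8 to 32.1 CPM in the controls, against 2.85 to 4.75 CPM in Neil (2.32 ± 0.21, adjusted p = 0.000288). Ednra, an endothelin receptor of crest cells that build the face, had 9.01 and 13.6 CPM in Apex1 against 1.44 to 4.32 CPM in Neil. Tcfap2b, the AP-2β factor of crest, was low in both kinds of mutant, with 1.13 and 1.81 CPM in Apex1 and 0.00 to 0.171 CPM in Neil against 9.22 to 29.7 CPM in the controls. It differed by 4.11 ± 0.58 between the mutants (adjusted p = 0.00228), on 12 counts in all Neil libraries together. The crest list summed to 591 and 593 CPM in Apex1 and to 442 to 728 CPM in Neil, so that its total did not separate the groups. Proneural and neuronal genes had 7 of 21 members higher and 1 lower, with 2 higher in both fits. Isl1, a factor of motor and sensory neurons and of heart precursors, was at 10.5 and 7.12 CPM in Apex1 against 0.371 to 1.40 CPM in Neil. Neural tube domain genes had 6 of 18 members higher, with 3 higher in both fits, and forebrain genes 1 of 12 higher and 2 lower. Emx2, a forebrain factor that also acts in the urogenital tract, was the single forebrain member DE in both fits (2.30 ± 0.33, adjusted p = 0.00255).

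Several Hox genes, which give cells their position along the body axis, were higher in Apex1, and Hoxa2 was not DE. Of 36 Hox genes tested 16 were higher, none lower and 8 higher in both fits, with a median of 0.75. Over all genes 11.9% were higher and 3.72% higher in both fits. Hoxa9 (chr6:52173099-52181088) had 20.9 and 23.4 CPM in Apex1, 1.16 to 2.61 CPM in Neil and 0.740, 0.421 and 1.05 CPM in the controls. The Apex1 libraries stood above Neil and control alike, with differences of 3.66 ± 0.25 from Neil (adjusted p = 5.04e-05) and of 4.93 ± 0.38 from control (adjusted p = 0.000164), and Neil stood above control by 1.28 (adjusted p = 0.00654). Hoxc6 had a different order, with 11.9 and 16.5 CPM in Apex1, 0.741 to 2.40 CPM in Neil and 20.9 to 39.9 CPM in the controls (3.46 ± 0.35, adjusted p = 0.000586). Hoxa6 had 3.94 and 5.27 CPM in Apex1, 0.856 to 1.15 CPM in Neil and 3.90 to 8.13 CPM in the controls. Hoxa7, Hoxa10, Hoxb13, Hoxd1 and Hoxd3 were the others DE in both fits, with differences of 1.96, 2.20, 1.13, 1.34 and 2.08. Hoxa2, a hindbrain and crest gene, was at 27.0 and 27.4 CPM in Apex1 and 19.1 to 29.2 CPM in Neil, against 42.1 to 69.6 CPM in the controls.

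Genes of retinoid metabolism and response moved in both directions. Of 26 tested, 8 were higher and 8 lower, with 4 higher and 1 lower in both fits and a median of 0.10. Nr2f1 and Nr2f2, orphan nuclear receptors induced by RA, were at 75.5 and 72.4 CPM and at 130 and 143 CPM in Apex1, against 4.22 to 19.9 CPM and 32.7 to 68.9 CPM in Neil. Both stood higher still in the controls, with 145 to 271 CPM and 181 to 273 CPM. Aldh1a2, the enzyme that makes RA in the embryo, had 34.0 and 35.2 CPM in Apex1 against 3.43 to 15.7 CPM in Neil and 101 to 105 CPM in the controls (2.31 ± 0.44, adjusted p = 0.00962). Crabp1, which binds RA in the cytoplasm, differed by 2.20 ± 0.53 (adjusted p = 0.0240) but was not DE with the duplicates summed (adjusted p = 0.151). Tgm2, a transglutaminase induced by RA, went the other way, with 56.2 and 65.1 CPM in Apex1 and 185 to 428 CPM in Neil against 73.6 to 204 CPM in the controls (−2.09 ± 0.32, adjusted p = 0.00364). Exons of other genes cover 21.8% of the exon bases of Tgm2, and reads there were not counted.

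Members of several signalling lists were higher in Apex1, where 11.9% of all genes were, and 3.72% in both fits. Hedgehog genes, which pattern the ventral neural tube and somites, had 11 of 14 members higher and none lower, with 6 higher in both fits and a median of 1.06. Gli1, a target of the pathway, had 23.7 and 23.2 CPM in Apex1, 6.00 to 11.2 CPM in Neil and 20.6 to 62.9 CPM in the controls (1.49 ± 0.22, adjusted p = 0.00294). Gli2, its main activator, had 33.3 and 35.8 CPM against 6.26 to 15.3 CPM, and Shh, the ligand, 3.38 and 2.23 CPM against 0.358 to 0.525 CPM. The exons of other genes cover 24.2% of those of Shh. Wnt ligands and targets had 11 of 26 members higher and 2 lower, with 5 higher in both fits. Sfrp1, a secreted Wnt inhibitor, had 90.6 and 99.4 CPM in Apex1 and 13.1 to 29.8 CPM in Neil, against 172 to 235 CPM in the controls (2.47 ± 0.27, adjusted p = 0.000769). Sfrp2, of the same family, and Rspo3, which strengthens Wnt signalling, differed by 2.33 and 2.47. BMP and TGF-beta genes had 9 of 19 members higher and none lower, with 5 higher in both fits, among them Bmp4 at 11.4 and 12.4 CPM against 1.53 to 3.33 CPM, Tgfb2 and the decoy receptor Bambi. Notch genes had 5 of 16 members higher and none lower, with 3 higher in both fits. Hey1, a Notch target, had 17.3 and 19 CPM in Apex1, 1.71 to 5.18 CPM in Neil and 25.4 to 28.3 CPM in the controls, and the receptors Notch3 and Notch2 differed by 1.18 and 0.81.

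**Figure D3:**
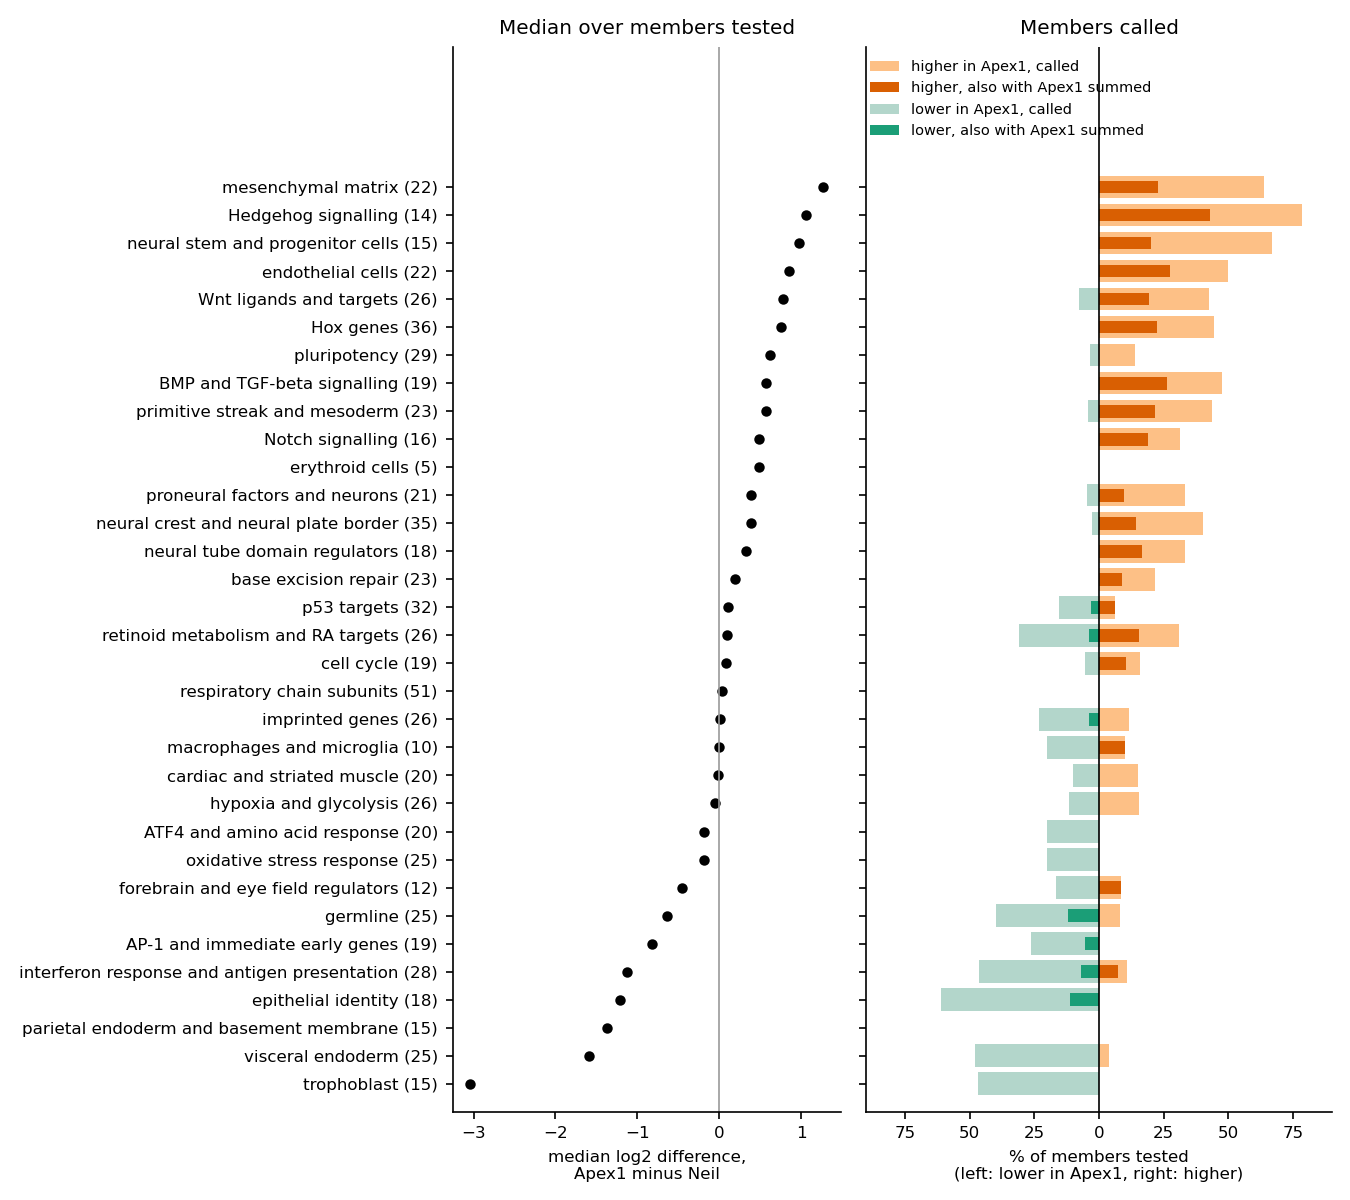
The 33 gene lists are shown with the number of members tested in brackets, the median log2 difference (Apex1 minus Neil) at the left and the share of tested members called DE at the right, as light bars for the 2 duplicates and dark bars for genes also DE with the duplicates summed. Bars to the right are members higher in Apex1, where the share over all genes was 11.9%, and bars to the left are members lower, where it was 11.1%, and the medians run from −3.04 for trophoblast to 1.27 for mesenchymal matrix.

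The D-type cyclins, which carry cells into the cell cycle, stood out in the cell cycle list. Of its 19 members 3 were higher, 1 lower and 2 higher in both fits. Over all genes 11.9% were higher, 11.1% lower and 3.72% higher in both fits. Ccnd1 had 43.5 and 48.2 CPM in Apex1, 4.02 to 6.59 CPM in Neil and 27.6 to 71.1 CPM in the controls, a difference of 3.0 ± 0.18 (adjusted p = 2.37e-05). Ccnd2 had 114 and 142 CPM against 19.8 to 28.8 CPM in Neil and 217 to 601 CPM in the controls (2.35 ± 0.16, adjusted p = 5.04e-05). Exons of Oraov1 cover 21.3% of the exon bases of Ccnd1.

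The genes lower in Apex1 included interferon-stimulated and antigen presentation genes, which the Neil clones expressed above control. Of 28 tested members of that list 13 were lower and 3 higher, with 2 lower and 2 higher in both fits and a median of −1.13. The median differences from control were 1.04 in Neil and −0.07 in Apex1. Bst2, or tetherin, which holds budding viruses on the cell, had 37.5 and 42.8 CPM in Apex1, 97.2 to 204 CPM in Neil and 38.3, 40.1 and 83.9 CPM in the controls (−1.81 ± 0.27, adjusted p = 0.00283). H2-K1, a class I MHC heavy chain, had 75.4 and 85.9 CPM against 152 to 221 CPM in Neil and 76.8 to 93.6 CPM in the controls (−1.13 ± 0.16, adjusted p = 0.00241). MHC genes are near copies of each other, so that their counts are uncertain. Rsad2, Ifih1 and B2m, the antiviral enzyme viperin, an RNA sensor and the light chain of class I MHC, were lower by −2.83, −2.01 and −1.34 but not DE with the duplicates summed. Tmem173, or STING, and Ifitm3, a membrane protein that blocks virus entry, went the other way. Tmem173 had 7.27 and 8.24 CPM in Apex1, 1.30 to 2.65 CPM in Neil and 2.02 to 3.07 CPM in the controls. Ifitm3 had 111 and 87.0 CPM in Apex1, 30.5 to 55.3 CPM in Neil and 34.8 to 47.5 CPM in the controls.

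Outside the list, the 12 largest falls also held Cxcl10, an interferon-induced chemokine, and Uba7, the enzyme that activates ISG15. Cxcl10 had 8.82 and 7.97 CPM in Apex1, 32.8 to 97.2 CPM in Neil and 9.98 to 20.3 CPM in the controls (−2.69 ± 0.48, adjusted p = 0.00743). Uba7 had 1.74 and 1.85 CPM against 8.04 to 15.5 CPM in Neil and 2.22 to 4.31 CPM in the controls (−2.52 ± 0.33, adjusted p = 0.00177). Interferon-stimulated genes often carry the element GAAANNGAAA before their start, and the RefSeq promoters of 2 of the lower genes that hold it are printed here, from 250 bases before to 50 after the start in build GRCm38.p6, with the element in capitals.
Cxcl10, chr5:92348840-92349139, minus strand: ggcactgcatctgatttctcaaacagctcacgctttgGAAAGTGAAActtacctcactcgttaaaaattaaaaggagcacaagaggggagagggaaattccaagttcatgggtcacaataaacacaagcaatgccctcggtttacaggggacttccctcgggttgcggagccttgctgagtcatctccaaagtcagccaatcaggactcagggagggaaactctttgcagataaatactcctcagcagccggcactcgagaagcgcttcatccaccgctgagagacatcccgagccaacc
Bst2, chr8:71537423-71537722, minus strand: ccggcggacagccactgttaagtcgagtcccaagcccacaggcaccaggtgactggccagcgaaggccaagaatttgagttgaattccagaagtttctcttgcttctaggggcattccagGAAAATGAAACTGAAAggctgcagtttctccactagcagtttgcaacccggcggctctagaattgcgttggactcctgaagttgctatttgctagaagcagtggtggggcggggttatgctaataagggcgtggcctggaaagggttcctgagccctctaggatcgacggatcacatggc
The motif was searched on both strands and overlapping matches were counted, of which Bst2 holds 2 and Cxcl10 1, and none was found in the windows of H2-K1 and Uba7. RefSeq promoters matched 11 of the 13 lower list members and 10 of the 15 other tested members. Of 12 promoters of the lower members 6 held it (50%), of 12 promoters of the others 5 (41.7%), and of all 32851 promoters 3.44%. The share was thus high in the list as a whole and close to equal between members called lower and the others.

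Epithelial genes were lower in Apex1 for most members of their list. Of 18 epithelial genes tested 11 were lower and none higher, with 2 lower in both fits and a median of −1.21. Cldn7 and Cldn6, claudins of tight junctions, were at 40.8 and 30.8 CPM and at 168 and 171 CPM in Apex1, against 68.5 to 143 CPM and 296 to 567 CPM in Neil. The controls stood at 34.3 to 62.0 CPM and 164 to 238 CPM, near the Apex1 libraries. Visceral endoderm genes had 12 of 25 members lower and 1 higher, and trophoblast genes 7 of 15 lower and none higher, with medians of −1.59 and −3.04, but none of either list was DE in both fits. Prl7d1 and Prl3d1, prolactin-like hormones of trophoblast giant cells, were at 0.0469 to 0.0770 CPM and 0.0770 to 0.329 CPM in Apex1, against 2.57 to 62.3 CPM and 3.68 to 52.5 CPM in Neil, and at 4.01 to 10.5 CPM and 2.03 to 2.49 CPM in the controls. Prl3b1 had no count in either Apex1 library. The trophoblast list summed to 2620 and 3700 CPM in Apex1, 4980 to 10300 CPM in Neil and 4540 to 7330 CPM in the controls. The visceral endoderm list summed to 674 and 694 CPM in Apex1 and to 664 to 3300 CPM in Neil, and that of parietal endoderm to 4000 and 4510 CPM and to 3290 to 34400 CPM, with none of its 15 members DE. Gata6, a factor of primitive endoderm, was at 71.4 and 69.1 CPM in Apex1 and 40.7 to 237 CPM in Neil and was not DE. The part of these cell types in the epithelial, retinoid and interferon results was not tested.

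Genes of meiosis and germ cells were lower as well. Of 25 germline genes 10 were lower and 2 higher, with 3 lower in both fits and a median of −0.64, while both kinds of mutant stood above control, with medians of 1.14 in Apex1 and 1.47 in Neil. Stag3, a meiotic cohesin, had 27.9 and 46.2 CPM in Apex1, 120 to 188 CPM in Neil and 49.7 to 61.3 CPM in the controls (−1.98 ± 0.25, adjusted p = 0.00144). Smc1b, another meiotic cohesin and among the 12 largest falls, had 3.10 and 6.12 CPM against 12.3 to 38.3 CPM in Neil and 5.25 to 12.1 CPM in the controls. Slc25a31, a testis ADP/ATP carrier, and Sohlh2, a factor of germ cells, were lower by −1.40 and −1.22. Pluripotency genes, which should fall on differentiation, had 4 of 29 members higher and 1 lower and none DE in both fits. Their median difference was 0.62, and of the members not called 21 lay above 0 and 3 below. The list summed to 3330 and 4120 CPM in Apex1 and to 1340 to 3590 CPM in Neil. Its medians above control were 2.31 in Apex1 and 1.91 in Neil. Pou5f1, the Oct4 gene, was at 186 and 140 CPM in Apex1, 34.8 to 145 CPM in Neil and 14.1 to 22.7 CPM in the controls, so that the mutants overlapped, and it was not DE (0.96 ± 0.44, adjusted p = 0.162).

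The rest of the 12 largest falls were Hsd17b2, a steroid dehydrogenase, at 0.469 and 0.693 CPM against 3.33 to 18.8 CPM in Neil, together with 4933406J08Rik, Tuba3b, Psd4, Aldh3b2, Slc36a2, Nrip3, C3 and Ptpn20. Tuba3b is a near copy of Tuba3a, so that its count is uncertain. Psd4 had 5.02 and 5.16 CPM in Apex1, 25.8 to 69.5 CPM in Neil and 6.82 to 11.7 CPM in the controls. C3, the central complement protein, had 3.66 CPM in each Apex1 library and 11.9 to 24.7 CPM in Neil, and 1 control at 24.4 CPM.

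Lists of damage and stress responses are set beside all genes tested, of which 11.9% were higher, 11.1% lower and 4.87% DE in both fits. Of 32 p53 targets 2 were higher and 5 lower, with 2 higher and 1 lower in both fits and a median of 0.11. The list stood above control in both kinds of mutant, by medians of 0.68 in Apex1 and 0.70 in Neil. Zmat3 and Aen, p53 targets of RNA processing and apoptosis, were higher in both fits, Zmat3 with 191 and 217 CPM against 107 to 126 CPM in Neil and 109 to 122 CPM in the controls (0.78 ± 0.11, adjusted p = 0.00255). Plk3, a stress kinase, was lower, with 39.0 and 35.7 CPM against 89.6 to 187 CPM in Neil (−1.72 ± 0.28, adjusted p = 0.00417). Cdkn1a, the p21 gene, was at 207 and 250 CPM in Apex1 and 139 to 305 CPM in Neil and was not DE. Oxidative stress genes had 5 of 25 members lower and AP-1 and immediate early genes 5 of 19, with none higher in either, and Atf3, a stress-induced factor, was the single member of either list DE in both fits (−1.69 ± 0.28, adjusted p = 0.00432). Mt1 and Mt2, the metallothioneins, were lower by −1.81 and −1.80 but not DE with the duplicates summed. Of 51 subunits of the respiratory chain none was DE, with a median of 0.04. Of 23 base excision repair genes 5 were higher, and besides Apex1 itself Smug1, a uracil glycosylase, was DE in both fits, with 41.3 and 46.1 CPM in Apex1, 17.3 to 24.3 CPM in Neil and 63.5 to 96.2 CPM in the controls. Genes of hypoxia and glycolysis had 4 of 26 members higher and 3 lower, ATF4 targets 4 of 20 lower, imprinted genes 3 of 26 higher and 6 lower, with Impact lower in both fits (−1.13), and macrophage genes 1 of 10 higher and 2 lower. Laptm5, a lysosomal protein of blood cells, was the macrophage member DE in both fits, at 29.8 and 25.8 CPM in Apex1, 5.13 to 10.9 CPM in Neil and 1.35 to 2.73 CPM in the controls. Defining macrophage markers such as Ptprc, Aif1 and Cx3cr1 had too few counts to be tested.

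Whether the differences belonged to the RA stage was asked with an interaction term in the 16 mutant libraries of EBs with and without RA. In EBs without RA 2616 of 15350 genes were DE between Apex1 and Neil (17.0%), 8.36% higher and 8.68% lower in Apex1. The difference depended on RA for 390 of 16456 genes (2.37%), with 273 more positive (1.66%) and 117 more negative (0.711%) with RA, and for 4 of 16979 (0.0236%) with the duplicates summed. These 4 were Igf1, a growth factor, and Car14, Rcsd1 and Mex3b, which are named after their values were seen, with interactions of 4.37 ± 0.64 (adjusted p = 0.0345), 3.33 ± 0.52 (adjusted p = 0.0398), 2.70 ± 0.32 (adjusted p = 0.00581) and 3.05 ± 0.47 (adjusted p = 0.0398). With the duplicates summed 924 genes had an unadjusted p below 0.05. Of the named genes, 20 were called RA dependent with the duplicates as 2 libraries, and none with them summed. Lbh differed by −0.13 in EBs and by 3.88 in EBs + RA, and Sfrp1 by 0.18 and 2.47. Hoxa2 differed by 2.75 in EBs and by 0.27 in EBs + RA, an interaction of −2.46 (adjusted p = 0.00368, and 0.165 with the duplicates summed). In EBs Hoxa2 was near the floor, with 0.929 and 1.26 CPM in Apex1 and 0.088 to 0.236 CPM in Neil, so that its difference there rests on few reads. Col3a1 differed by 4.59 without RA and Hapln1 by 5.54, but both were near the floor there. In EBs Col3a1 had 2.2 and 5.78 CPM in Apex1 and 0.0 to 0.362 CPM in Neil. Hapln1 had 0.549 and 1.95 CPM against 0.0 to 0.045 CPM, so that both differences without RA rest on few reads.

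**Figure D4:**
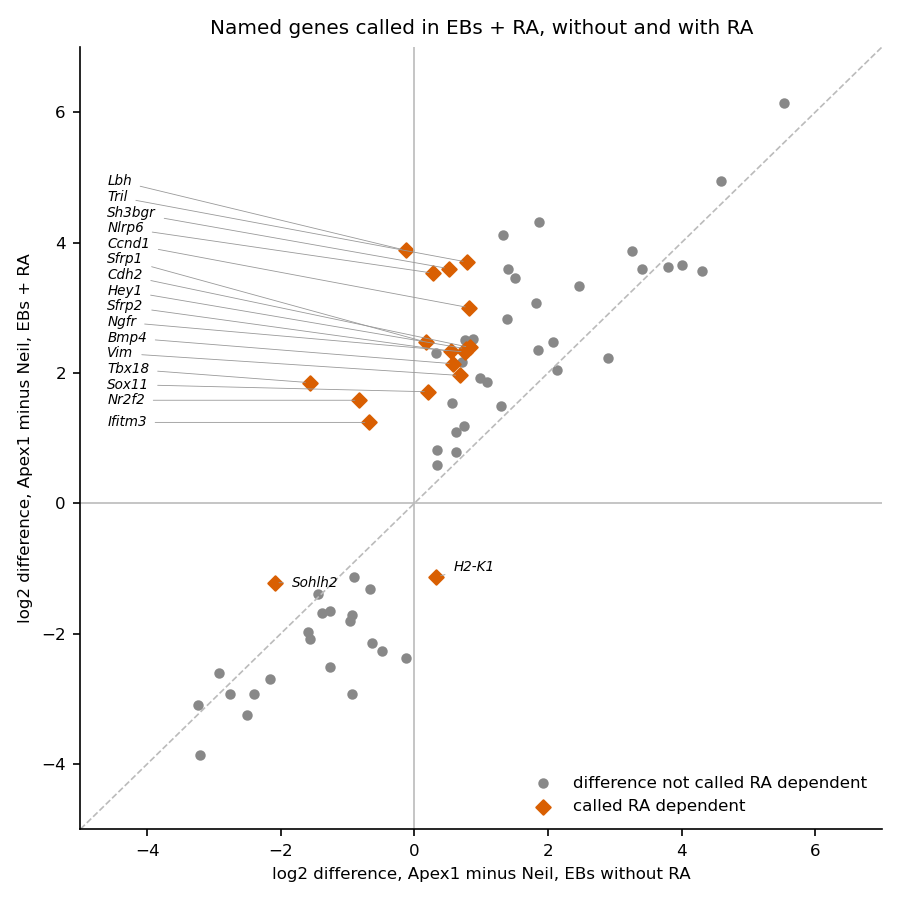
Each point is 1 of the 70 named genes DE in both fits of EBs + RA and tested in EBs, with its log2 difference (Apex1 minus Neil) in EBs without RA on the x axis and in EBs + RA on the y axis, and a dashed line of equality. The 18 genes called RA dependent are drawn as named diamonds, and 16 of them lie above the line with a positive difference in EBs + RA, with Lbh near 0 on the x axis and 3.88 on the y axis.

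The median over the genes of a chromosome differed between libraries for some chromosomes, and the part of these shifts in the results was not tested. A median does not tell whether a whole chromosome or a part of it moved. Over 406 genes of chromosome 12 with a mean of at least 5 CPM, the median difference from the control mean was 0.20 and 0.27 in the Apex1 libraries on the log2 scale and −0.07 to 0.04 in Neil. Over chromosome 13 it was −0.28 and −0.16 in Apex1 and −0.16 to −0.03 in Neil, and over chromosome 9 it was −0.28 in the third Neil1 clone and −0.04 to 0.01 in the other Neil clones. Of 576 genes of chromosome 12 tested, 58 were higher and 6 lower in both fits. Over all genes tested 3.72% were higher and 1.15% lower in both fits. On chromosome 13 it was 23 higher and 11 lower of 617, and on chromosome 9 it was 24 and 13 of 938. Sox11 and Osr1 lie on chromosome 12, Hapln1, Isl1, Nr2f1 and Neurog1 on chromosome 13, and Uba7, Aldh1a2, Tbx18 and Fli1 on chromosome 9.

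**Figure D5:**
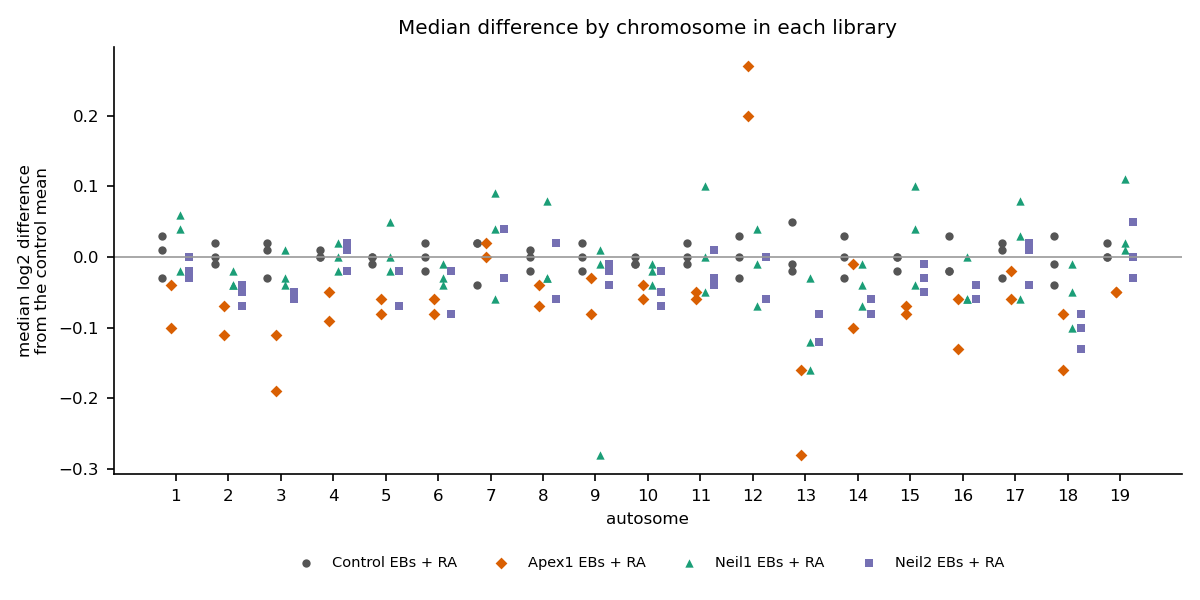
The y axis gives the median log2 difference from the mean of the controls over the genes of each autosome on the x axis, with 1 point per EBs + RA library. The 2 Apex1 libraries stand out on chromosome 12 at 0.20 and 0.27, and 1 Neil1 clone on chromosome 9 at −0.28.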

How the data were processed

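Per the study's methods and the submitters' processing notes, the authors sequenced TruSeq v2 libraries on an Illumina HiSeq for 51 cycles, mapped the reads to NCBIM37 with TopHat2 v. 2.0.9 and Bowtie2 v. 2.1.0, and deposited raw counts per gene from HTSeq-count v. 0.5.4. The library kit does not mark strand, so that a gene and an overlapping antisense gene cannot be told apart. Reads on no gene, 5.86% to 8.85% of the reads per library that HTSeq recorded, were left out, as were reads on more than 1 gene or at more than 1 place.

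Genes on the 19 autosomes that passed filterByExpr were tested in R 4.3.3 with edgeR 4.0.16 (TMM, robust quasi-likelihood fit) over the 8 mutant libraries, with Neil1 and Neil2 as 1 group. CPM values used TMM library sizes, and each SE was taken as the fold change over the square root of the F statistic. The Apex1 libraries are technical duplicates of 1 clone, so that p-values with 2 Apex1 libraries partly measure technical spread. The same fit was also run on their sum, except for the comparisons with control and the comparison in EBs without RA. Alternatives were Neil1 and Neil2 apart, control libraries in the fit, a replicate block, RLE size factors, DESeq2 1.42.0, other filters and thresholds, all chromosomes, and each library left out. The fits were tested on simulated data.

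Named genes were the 12 largest rises and the 12 largest falls among genes DE in both fits without overlap whose mean log2 CPM reached 2, up to 3 genes DE in both fits per list and direction whose mean log2 CPM reached 0, and the targeted and fixed neural, crest and stem cell genes. Further list members were named to illustrate a list after their values were seen. Members and lists were chosen with earlier results of these data known, and a list's counts are a description. Guides came from the study's supplementary material and promoters from RefSeq (GRCm38.p6). Deviations of log2 CPM from the mean of each genotype correlated at −0.35 to 0.12 between same-numbered libraries, so that numbers did not pair samples. With 2 Apex1 libraries their deviations mirror each other, so that these values are not independent.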

Additional observations from a re-analysis of the deposited data

Results flagged for a closer look

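In 10 of 89 named genes 1 of the 6 Neil clones lay far from the others by Dixon's test, which flags about 1 in 20 by chance. Neil2 replicate 1 was such a clone for 6 genes. It was high for Sfrp1 at 29.8 CPM, Tbx18 at 5.99 CPM, Sh3bgr at 6.46 CPM, Nlrp6 at 2.91 CPM and Ptpn20 at 10.2 CPM, and low for Ccnd1 at 4.02 CPM. Neil1 replicate 3 was high for Psd4 at 69.5 CPM and low for Isl1 at 0.371 CPM and Pax3 at 0.324 CPM. Neil2 replicate 2 was low for Shh at 0.358 CPM. The Apex1 libraries lay outside the Neil range for each of these genes but Pax3, which the naming rule required of them. Pax3 was named whatever its values.

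For 20 named genes the Apex1 minus Neil difference in EBs + RA differed from that in EBs without RA by the interaction term of edgeR's quasi-likelihood test. The interaction, in log2 units, was positive for the Wnt, BMP and Notch genes Sfrp1 (2.32), Sfrp2 (1.81), Bmp4 (1.59) and Hey1 (1.63), for the neural and crest genes Ngfr (1.59), Cdh2 (1.59), Vim (1.30) and Sox11 (1.53), and for Ccnd1 (2.21), Nr2f2 (2.45), Tbx18 (3.45), Ifitm3 (1.94), Lbh (4.03), Tril (2.94), Sh3bgr (3.12) and Nlrp6 (3.28). Sohlh2 was lower in Apex1 at both stages, by less with RA (0.90). H2-K1 (−1.43) and Hoxa2 (−2.46) had negative interactions. Some of these genes were near the floor in EBs without RA, among them Hoxa2. Tbx18 had 0.169 and 0.203 CPM there in Apex1 and 0.322 to 0.882 CPM in Neil, and Nlrp6 0.326 and 0.633 CPM and 0.215 to 0.676 CPM. The fitted interaction of Neurog1 (8.61) is no measure of size, since neither Apex1 EB library held a count of it. Adjusted p-values ran from 0.00184 to 0.0911 with the duplicates as 2 libraries and from 0.165 to 0.809 with them summed, so that none of the 20 was called in the summed fit.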

How the results depend on the processing

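The 1 Apex1 clone sets the main limit. With its duplicates summed, the 3671 DE genes became 782 (599 higher and 183 lower), and leaving out 1 library at a time gave 722 to 4137 genes, 562 to 2249 of them higher and 160 to 1968 lower. The low ends came without an Apex1 library, with 722 genes (562 and 160) without replicate 1 and 1088 (742 and 346) without replicate 2, where the lone library is assumed to vary like the Neil clones. A log2 threshold of 1 left 1908 genes (968 and 940), and an FDR below 0.05 left 1069 lower genes. Apart from the replicate block, the other alternatives stayed within 1.5 times these counts, among them DESeq2 with 4209 genes and RLE size factors with 3675.

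With a replicate block 2206 genes were DE, 938 of them lower, and the block called all 777 genes DE in both fits in the same direction. Same-numbered libraries did not deviate together, so that this block rests on a shared number only. Of the 777 genes, 632 were called without Apex1 replicate 1, 688 without replicate 2 and 771 by DESeq2.

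The count of RA dependent genes was the least firm. It was 390, but 4 with the duplicates summed, 938 by DESeq2 and 26 to 934 when 1 of 16 libraries was left out. It was 30 and 26 without Apex1 EBs replicate 1 and 2, and 65 and 92 without Apex1 EBs + RA replicate 1 and 2. Among EBs it was 228 and 224 without Neil1 replicate 1 and 2, and 934, 238 and 214 without Neil2 replicate 1, 2 and 3. Among EBs + RA it was 249, 253 and 707 without Neil1 replicate 1, 2 and 3, and 588 without Neil2 replicate 1. The causes were not tested.

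Of 4 genes that were not DE, the sign turned. Neil2 (0.12) and Gata6 (0.02) did so against Neil2 only, and Pax3 (0.12) and Pax2 (−0.22) against Neil1 only. Leaving out 1 library gave −0.28 to 0.06 for Pax3 and −0.11 to 0.16 for Pax2. Of the 76 named genes DE in both fits none reversed. Without Apex1 replicate 1, Hsd17b2, Smc1b, Nrip3, Sox11, Osr1 and Aen were not DE, without replicate 2 Notch2 was not, and at a log2 threshold of 1 Zmat3, Aen and Notch2 were not. Leaving out chromosomes 9, 12 and 13, which was chosen after seeing the data, gave 3123 DE genes with those genes untested. Of 1452 list counts under the alternatives 1173 stayed within 1.5 times.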
